A study of Mus musculus with 4 samples.

Results

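The comparison is between 2 single-cell libraries, of the diaphragm and of the quadriceps, from mdx5cv mice with Ccr2 intact. A barcode was taken from 500 UMIs (unique molecular identifiers, which count captured mRNA molecules) and 300 genes upwards, provided that mitochondrial genes gave no more than 15% of its UMIs. This left 12582 from the diaphragm and 5238 from the quadriceps, or 17820 of the 31077 that passed in the series. The series holds 4 libraries of mononuclear muscle cells, 1 for each muscle of mdx5cv and mdx5cv/Ccr2-/- mice, all from mice 14 weeks old, and is about the resident macrophages of muscle without Ccr2. Every group carries the mdx5cv allele of Dmd, so no muscle here had normal dystrophin and no healthy muscle is compared. The knockout pair, which lacks the chemokine receptor Ccr2 as well, is set beside the mdx5cv pair below and shares no library with it. The preparation is of mononuclear cells, so whole muscle fibres are not part of it. How many animals or which dissections went into a library is not given in the sources used here, so animal, dissection, library and muscle cannot be told apart.

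Duchenne muscular dystrophy and the mdx mouse share the loss of dystrophin, the protein that ties the fibre's cytoskeleton to the matrix around it. In the mdx mouse the diaphragm, which contracts at every breath, is known as the muscle with the most progressive fibrosis, while limb muscles degenerate and regenerate with less scarring. The diaphragm also differs in origin: its connective tissue comes from the pleuroperitoneal folds, its muscle precursors migrate from cervical somites, and its surfaces carry mesothelium. Limb muscles develop in the limb bud under posterior Hox genes, and the connective tissue cells of adult muscle keep such positional genes on. Fibro-adipogenic progenitors (FAPs) and fibroblasts make the matrix, satellite cells (muscle stem cells) rebuild fibres, and macrophages clear dead ones.

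After doublets were removed 11256 diaphragm and 4993 quadriceps cells remained, with medians of 5888.5 and 7986 UMIs per cell. The diaphragm median was also lower in each of the 6 classes compared below, so levels are given as CPM, the UMIs of a gene scaled to a common total per class. Each ratio is diaphragm over quadriceps, with an exact conditional binomial (Clopper-Pearson) 95% interval in parentheses. Intervals cover counting error only, with each UMI taken as independent, and with 1 library per muscle no difference has a replicate check. A gene counted as measured in a class from a mean of 20 CPM and 50 UMIs, and as past 2-fold on log2(CPM + 5), a scale that understates the change of low genes. The 2 libraries shared 23 barcodes, 0.439% of the smaller. The mdx5cv diaphragm held more haemoglobin RNA than its quadriceps (Hbb-bs 12.2 and 102 CPM over all cells), and the share of barcodes that failed the mitochondrial limit was 4.25% against 9.32%.

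Posterior Hox genes were high in the library labelled quadriceps and near 0 in that labelled diaphragm in FAP/fibroblast-, tenocyte- and muscle stem cell-like cells. In FAP/fibroblast-like cells Hoxc10 (ENSMUSG00000022484, chromosome 15, 102966796 to 102971893, plus strand, GRCm38), a posterior Hox gene of the hindlimb, had 805 UMIs in the quadriceps and 0 in the diaphragm. Its 50.2 CPM was at least 766-fold higher in the quadriceps, taking 3 counts as the most that 0 allows in the diaphragm class. Hoxa10 had 405 and 0 UMIs (at least 386-fold higher in the quadriceps), and Hoxc9 553 and 5, a ratio of 0.00317 (0.00102 to 0.00743). The hindlimb factor Tbx4 stood at 5.73 and 0.0873 CPM and Hoxc8 at 31.6 and 2.81 CPM. All 5 were under 3 CPM in the diaphragm class. Tbx4 differed less in muscle stem cell-like cells, at 7.02 and 8.096 CPM.

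Anterior Hox genes went the other way in the same cells. Of the 15 genes in the anterior list 1 counted as measured in FAP/fibroblast-like cells, as did 1 of 15 in the hindlimb and posterior list. Hoxb4 (chromosome 11, 96318267 to 96321638, plus strand) was at 2.68 and 31.9 CPM, a ratio of 11.9 (8.79 to 16.5), Hoxb2 at 6.54 and 34.3 CPM, Hoxa5 at 5.55 and 21.2 CPM and Hoxa2 at 0.8102 and 10.5 CPM. The zinc finger factors of the pleuroperitoneal folds followed: Gata4 had 641 UMIs in the diaphragm class and 0 in the quadriceps class (at least 74.8-fold higher), and Gata6 was at 3.43 and 42.2 CPM. Gata4 lies below the level from which a gene counted as measured. Of 6 measured diaphragm development factors in this class 1 was past 2-fold higher and 1 lower. By any amount 4 were higher and 2 lower, median 0.31. Wt1, which marks mesothelium and the pleuroperitoneal folds, had 1606 UMIs in the diaphragm and 4 in the quadriceps over all cells, a ratio of 263 (102 to 965). Thinned to 2000 UMIs per cell, 7.24% (5.68 to 9.07) of quadriceps FAP/fibroblast-like cells had a Hoxc10 UMI. Shallower cells were left out, 36 of the quadriceps and 238 of the diaphragm. None of the 5798 diaphragm cells used had a Hoxc10 UMI, which allows a share of up to 0.0517%. Unthinned, the quadriceps share was 47.4% at a median of 13707 UMIs, against a median of 6401.5 in the diaphragm. Hoxb4 was found in 0.839% (0.363 to 1.65) and 6.66% (6.03 to 7.33) at equal depth, 3.84% and 19.8% unthinned. Macrophage-like cells, which should lack Hoxc10, had it in 0.0720% (1 cell of 1389) and 0 of 1757 cells at equal depth, with medians of 10919 and 6688 UMIs before thinning. Their Hoxb4 was 1.66% and 1.59%. Hoxb4 may be expressed in macrophage-like cells themselves, so this share is no measure of background.

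**Figure D1:**
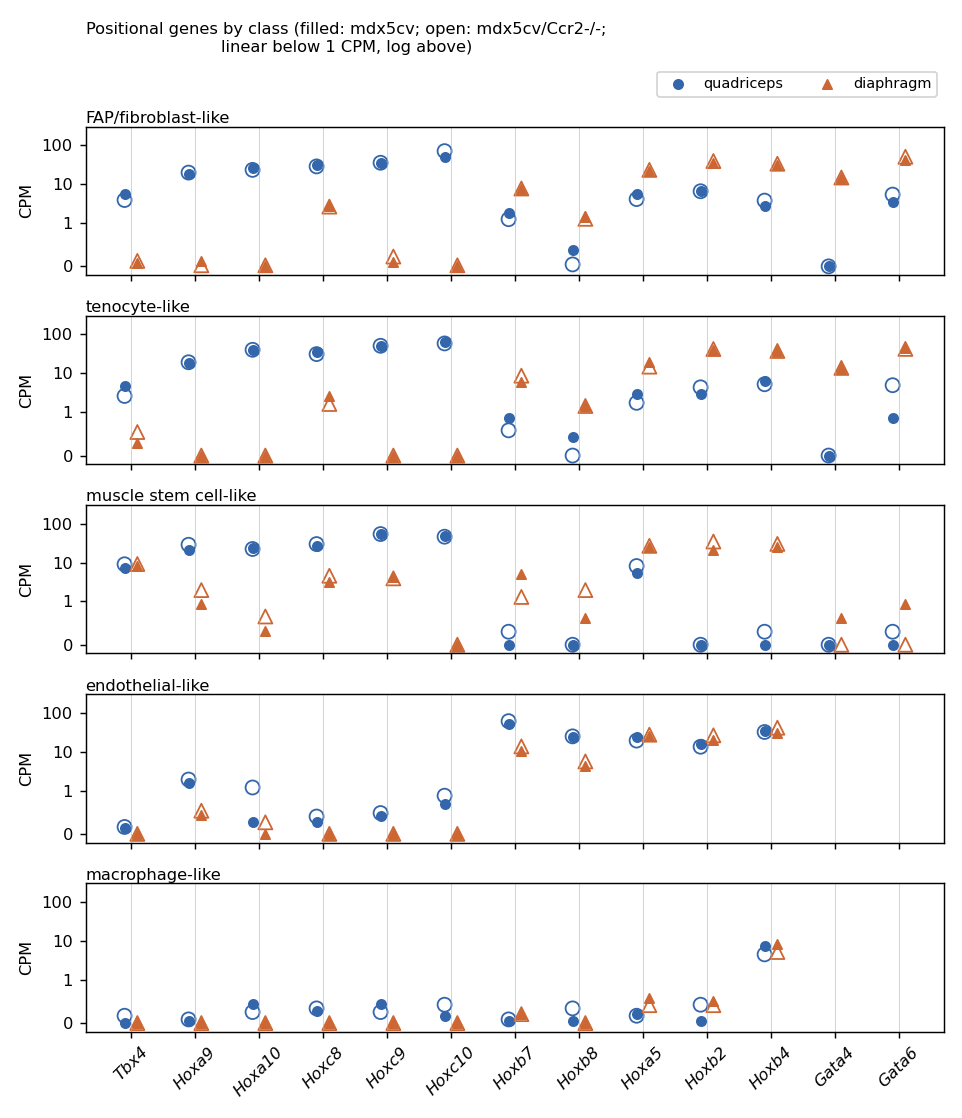
CPM of 13 positional genes in 5 cell classes (rows) for quadriceps (blue circles) and diaphragm (orange triangles), filled for mdx5cv and open for mdx5cv/Ccr2-/-, on an axis that is linear below 1 CPM and logarithmic above. Posterior Hox genes lie high in the quadriceps and near 0 in the diaphragm in FAP/fibroblast-, tenocyte- and muscle stem cell-like cells, endothelial-like cells differ in Hoxb7 and Hoxb8, and macrophage-like cells carry little beyond Hoxb4; Gata4 and Gata6 are not drawn for the last 2 classes.

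Muscle stem cell-like cells carried the same split with factors of their own. Hoxc10 had 90 UMIs in the quadriceps and 0 in the diaphragm class (at least 52.0-fold higher in the quadriceps), while Hoxb4 had 0 and 80 UMIs (at least 15.4-fold higher in the diaphragm) and Hoxb2 0 and 66 (at least 12.7-fold). Pax3, the factor of migrating muscle precursors that adult diaphragm stem cells are known to keep, was at 3.24 and 45.8 CPM, a ratio of 14.1 (6.34 to 39.1). The homeobox gene Meis2 had 3 and 404 UMIs, a ratio of 77.7 (26.4 to 378). Endothelial-like cells had little of Hoxc10 in either muscle, but Hoxb7 (chromosome 11, 96286623 to 96290162, plus strand) at 50.8 and 10.1 CPM, a ratio of 0.199 (0.125 to 0.304), and Hoxb8 at 23.6 and 4.401 CPM. Their Hoxb4 stood at 33.2 and 29.9 CPM, a ratio of 0.902 (0.679 to 1.19). In the knockout pair Hoxc10 was at 70.4 and 0.0253 CPM in FAP/fibroblast-like cells, Meis2 1.502 and 114 CPM and Pax3 6.31 and 41.1 CPM in muscle stem cell-like cells and Hoxb7 60.8 and 13.7 CPM in endothelial-like cells. Fibre RNA also differed over all cells, with the myosin of the fastest fibres Myh4 at 1.14 and 0.3999 CPM, Myh1, the myosin of the next fast fibres, at 0.532 and 3.61 CPM and the slow myosin Myh7 at 0 and 25 UMIs. These myosin levels lie below the one from which a gene counted as measured.

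The cellular make-up of the muscles differed in vessels, lymphoid cells, fibroblasts and other classes. FAP/fibroblast-like cells were 19.8% of quadriceps and 53.6% of diaphragm cells, a ratio of 2.71 (2.53 to 2.90), while endothelial-like cells of blood vessels were 28.5% and 6.48%, a ratio of 0.227 (0.207 to 0.248). The mural cells around the vessels were lower as well, pericyte-like cells at 119 and 48 cells (0.179, 0.1252 to 0.252) and smooth muscle-like cells at 58 and 40 (0.306, 0.199 to 0.466). Lymphatic endothelial-like cells, which line the vessels that drain the tissue, went the opposite way to blood endothelium, at 21 and 271 cells, or 0.421% and 2.41% (5.72, 3.67 to 9.40). Schwann or glial-like cells of the nerves were at 70 and 22 cells (0.139, 0.0822 to 0.228). Mesothelial-like cells were 101 in the diaphragm and 0 in the quadriceps, which allows a quadriceps share of up to 0.0601%.

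Immune cells as a whole took 38.1% of the quadriceps and 27.9% of the diaphragm, and their mix differed. Macrophage-like cells were 78.2% of immune cells in the quadriceps and 59.99% in the diaphragm, and neutrophil-like cells 3.996% and 0.446%. Lymphoid cells together were higher, at 5.57% and 23.0% of immune cells, or 2.12% and 6.42% of all cells (3.03, 2.46 to 3.75). Of these, B-like cells were at 30 and 263 cells (3.89, 2.66 to 5.88), T-like cells at 26 and 256 (4.37, 2.91 to 6.81) and cells with gamma-delta T or ILC2 markers at 15 and 140 (4.14, 2.43 to 7.595). NK-like cells were at 35 and 64 (0.811, 0.529 to 1.26), an interval that holds 1, as do those of cDC2-like and muscle stem cell-like cells. The T-like class also holds cells led by Gata3 and Il1rl1, genes known from type 2 innate lymphoid cells. At the finer Leiden resolution of 2 these moved to the gamma-delta T or ILC2 class, which then held 15 and 281 cells (8.31, 4.95 to 15.05). The T-like class kept 26 and 115 cells at that resolution, a ratio of 1.96 (1.27 to 3.13), and 72 and 64 cells in the knockout pair (0.936, 0.658 to 1.33). In the knockout pair the lymphatic ratio was 3.82 (2.53 to 5.94) and the pericyte ratio 0.149, while the B-like ratio was 1.17 (0.838 to 1.64) and the T-like 1.44 (1.06 to 1.95). Whether these ratios differ between genotypes was not tested. Shares are compositional and depend on how each muscle came apart, which was not measured.

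**Figure D2:**
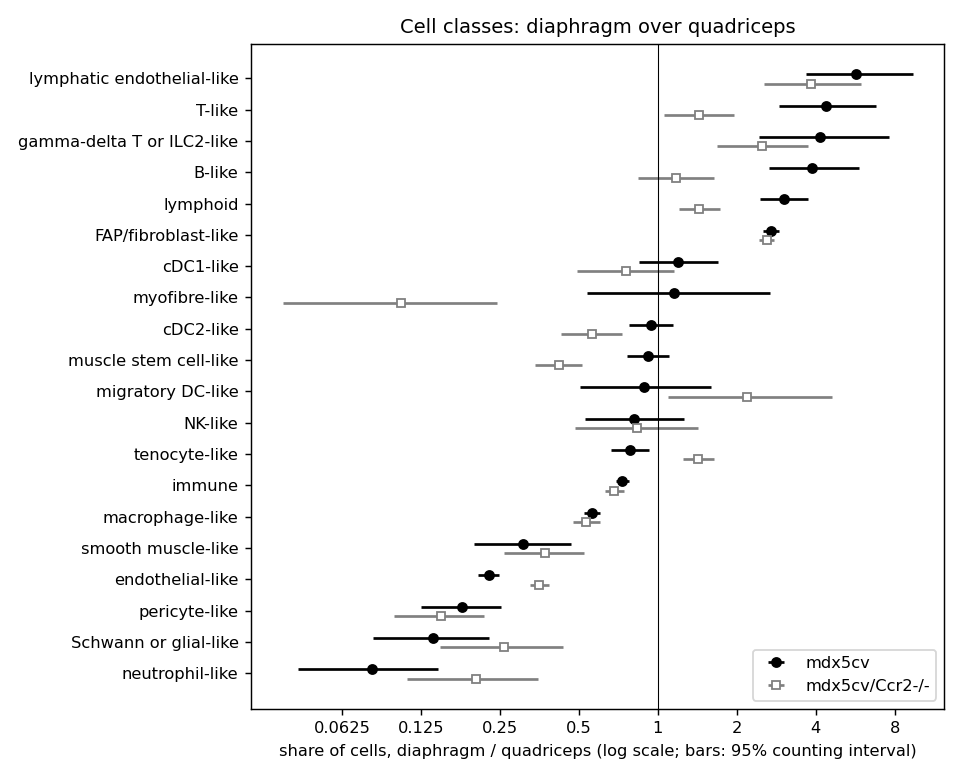
Share of cells in the diaphragm divided by that in the quadriceps on a log2-spaced axis, for classes with at least 10 cells in each mdx5cv library; filled circles are mdx5cv, open squares mdx5cv/Ccr2-/-, and bars are 95% counting intervals. Lymphatic endothelial-, B- and FAP/fibroblast-like cells lie right of 1 in mdx5cv (2.71 to 5.72), and blood endothelial-, pericyte-, Schwann- and neutrophil-like cells left of it (0.0817 to 0.227).

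Before the classes are taken in turn, 2 gene groups are given whose medians were higher in all of them. Immediate early genes, which are switched on within minutes of a stimulus, and heat shock chaperones, which refold damaged proteins, are known to be induced while tissue is dissociated as well as in stressed tissue. In FAP/fibroblast-like cells 13 of 18 measured immediate early genes were past 2-fold higher in the diaphragm and 0 lower, against 2.39% and 1.86% of all 5767 measured genes, and their median log2 ratio was 1.61 against −0.03 over all genes. The AP-1 subunit Fos was at 87.5 and 646 CPM, the stress factor Atf3 at 9.97 and 109 CPM and the zinc finger factor Egr1 at 205 and 1011 CPM. The medians were 1.22 in tenocyte-like, 1.18 in macrophage-like, 0.92 in endothelial-like, 0.67 in cDC2-like and 0.18 in muscle stem cell-like cells. For the 14 heat shock genes they ran from 0.44 in muscle stem cell-like to 1.27 in macrophage-like cells, with Hspb1 at 133 and 679 CPM and Hspa1a at 386 and 1301 CPM in FAP/fibroblast-like cells. Of those 14 genes 6 were past 2-fold higher there and 0 lower. Hspa1a and Hspa1b are near-identical copies whose reads may be split between them. In muscle stem cell-like cells Hspa1a was instead lower, at 2090.2 and 1295 CPM. Of 17 immediate early genes measured in all 6 classes 14 were higher in the diaphragm in each class, and of 14 heat shock genes 9. The knockout pair had medians of 1.23 and 0.46 in FAP/fibroblast-like cells. The part of these genes' state in the other differences below was not tested.

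Because the heat shock genes were higher together, their promoters are shown with the core of the heat shock element, the site bound by heat shock factors, searched as GAANNTTC (N is any base, and the motif reads the same on both strands). Of 14 heat shock genes 11 had a RefSeq promoter window and 6 of these held the motif in the 250 bases before the start, counting a gene once over its windows. Of 16 immediate early genes with a window 1 did. Counted by window, the motif was in 6 of the 17 heat shock windows (35.3%), in 1 of the 20 immediate early windows and in 6.69% of all 32851 windows. The 6 genes are not 6 separate promoters. Hspd1 and Hspe1 lie head to head, and the Hspd1 match also lies shortly before Hspe1, which starts at 55088132 on the plus strand. Thus 1 site can count for both genes. Hspa1a and Hspa1b, both among the 6, are near-identical copies. Stretches with up to 40 bases on each side of the motif, in capitals, follow for 4 of the 6 genes, from RefSeq on GRCm38.p6.
Hspa1a, chr17:34972213-34972300, minus strand: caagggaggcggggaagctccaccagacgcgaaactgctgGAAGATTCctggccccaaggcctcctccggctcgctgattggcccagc
Hspb1, chr5:135887762-135887869, plus strand: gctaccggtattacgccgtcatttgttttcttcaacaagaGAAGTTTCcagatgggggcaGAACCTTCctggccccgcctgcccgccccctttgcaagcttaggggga
Dnaja1, chr4:40722304-40722391, plus strand: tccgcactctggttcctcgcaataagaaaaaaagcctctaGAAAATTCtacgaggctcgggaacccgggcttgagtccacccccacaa
Hspd1, chr1:55088024-55088111, minus strand: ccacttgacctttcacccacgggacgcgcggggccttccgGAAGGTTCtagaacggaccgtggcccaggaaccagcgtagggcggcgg
In macrophage-like cells Hspa1a stood at 649.8 and 1703 CPM, Hspb1 at 26.98 and 169 CPM, the co-chaperone Dnaja1 at 231 and 558 CPM and the mitochondrial chaperonin Hspd1 at 137 and 247 CPM. In FAP/fibroblast-like cells Hspd1 was lower instead, at 245 and 193 CPM. A match of these letters is a description of the window and not a binding site.

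**Figure D3:**
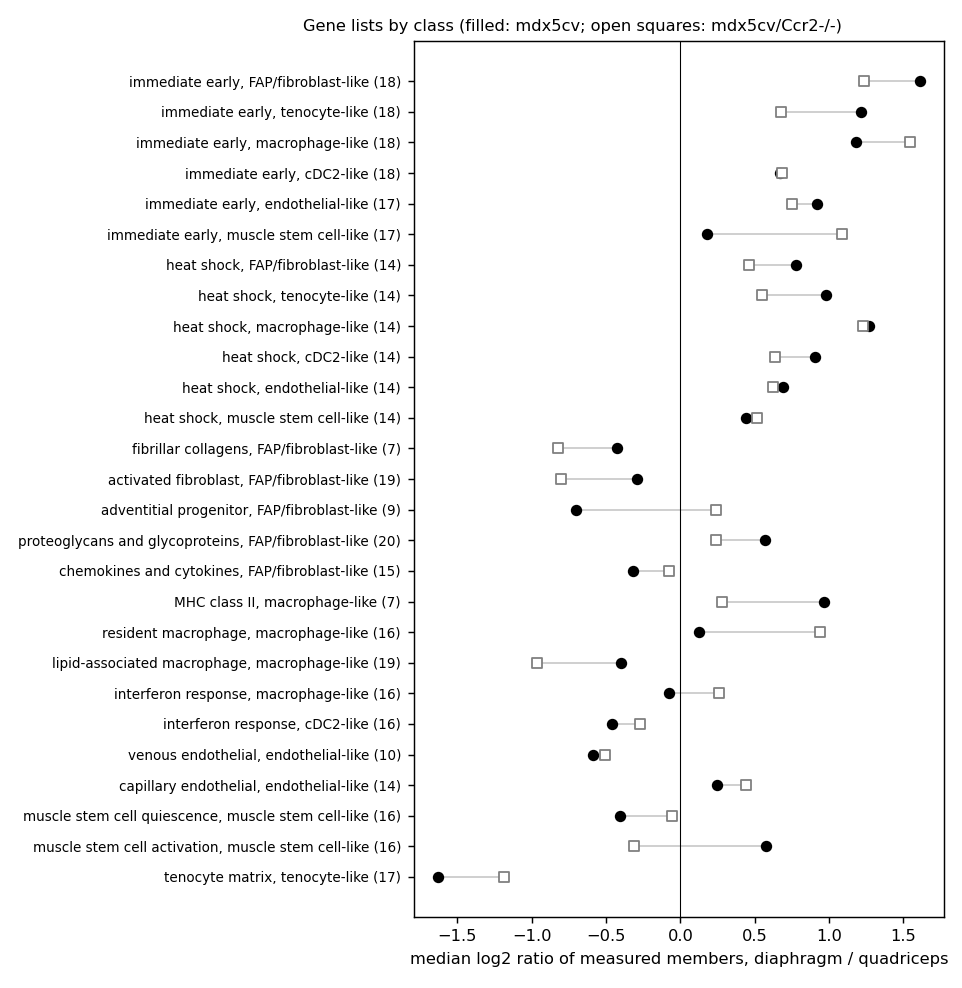
Median log2 ratio (diaphragm over quadriceps, CPM + 5) of the measured members of gene lists in each class, with the number of measured members in parentheses; filled circles are mdx5cv and open squares mdx5cv/Ccr2-/-. Immediate early and heat shock lists lie right of 0 in all 6 classes, and the tenocyte matrix list lies farthest left at −1.63.

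FAP/fibroblast-like cells of the diaphragm had a matrix and secretory profile unlike that of the quadriceps. In all, 138 of 5767 measured genes (2.39%) were past 2-fold higher and 107 (1.86%) lower. Highest by log2 ratio was Col6a5 (ENSMUSG00000091345, chromosome 9, 105856078 to 105960643, minus strand), a collagen VI chain, at 15.9 and 453 CPM, a ratio of 28.5 (25.2 to 32.4). It had a UMI in 3313 of 6036 diaphragm cells and 125 of 989 quadriceps cells. Ptgis, the synthase of prostacyclin, was at 12.8 and 195 CPM (15.2, 13.3 to 17.6), the glutathione transferase Gsta3 at 1.43 and 38.7 CPM and the methyltransferase Inmt at 34.5 and 229 CPM. Among matrix and secreted proteins the elastic fibre components Fbln1 (80.8 and 420.0 CPM) and Mfap4 (223 and 945 CPM), the serine protease Htra3 (153 and 655 CPM) and the guidance ligand Slit2 (6.54 and 44.4 CPM) were higher. These genes, with the terminal complement component C7 at 44.3 and 284 CPM, were also higher in the knockout diaphragm, Col6a5 at 12.2 and 509 CPM and Ptgis at 8.23 and 184 CPM.

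The genes that were lower in the diaphragm held limb patterning factors and chemokines. Beside Hoxc10, the limb homeobox gene Shox2 was at 67.5 and 3.098 CPM, Tbx15 at 39.6 and 0.589 CPM and the retinoic acid hydroxylase Cyp26b1 at 54.1 and 2.36 CPM. The chemokine Cxcl14 was at 1963 and 273 CPM (0.139, 0.136 to 0.142) and the eotaxin Ccl11 at 212 and 37.8 CPM. The neutrophil attractant Cxcl5 stood at 199 and 5.32 CPM (0.0267, 0.0234 to 0.0305). Cxcl5 had a UMI in 124 of 989 quadriceps cells, with up to 433 UMIs in 1 cell, and in the knockout pair it was at 4.72 and 6.44 CPM. The difference between genotypes was not tested. The BMP antagonist Chrdl1 (65.1 and 4.28 CPM), the growth factor Ptn (163 and 20.7 CPM), the basement membrane collagen Col18a1 (85.3 and 15.5 CPM) and complement factor B, Cfb (253 and 54.2 CPM), were lower too. Il1rl1, the IL-33 receptor, was at 39.9 and 5.02 CPM from only 52 and 38 cells. Of the genes past 2-fold, 95.5% had the same sign in the knockout pair, which included 100 of the 138 higher and 55 of the 107 lower genes past 2-fold there. Of all 5767 measured genes, 181 were past 2-fold higher and 101 lower in the knockout pair.

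**Figure D4:**
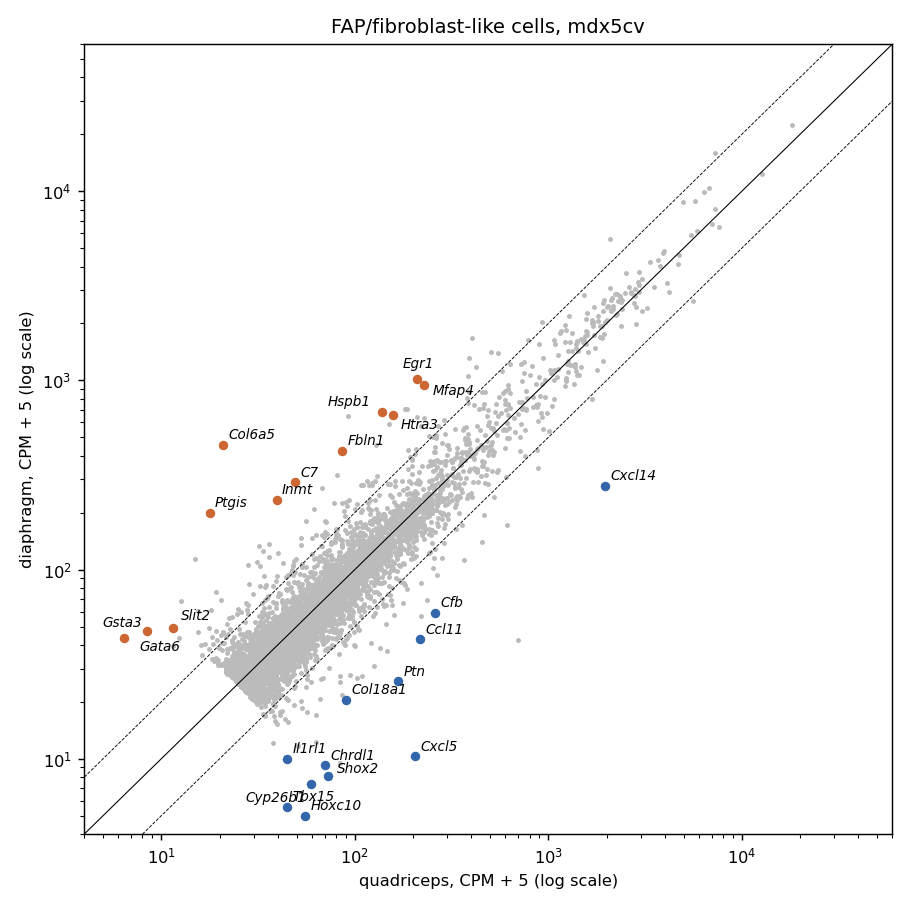
CPM + 5 of each of 5767 measured genes in FAP/fibroblast-like cells of the mdx5cv quadriceps (x) and diaphragm (y), both axes logarithmic, with equality as a solid and 2-fold as dashed lines. Named genes are coloured orange (higher in the diaphragm) and blue (lower); Col6a5 lies at 15.9 and 453 CPM and Cxcl14 at 1963 and 273 CPM.

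By group, fibril-forming collagens did not stand higher in FAP/fibroblast-like cells of the diaphragm. None of 7 measured fibrillar collagen genes was past 2-fold in either direction and 6 were lower, with a median of −0.43. Col1a1 was at 7599 and 6437 CPM (0.847, 0.841 to 0.853), Col3a1 at 12777 and 12358 CPM and Col1a2 at 7257 and 8027 CPM. Of 19 measured genes of activated fibroblasts 3 were past 2-fold lower, fibronectin Fn1 (1674 and 789 CPM), the protease Adam12 (93.7 and 41.8 CPM) and tenascin Tnc (354 and 166 CPM), and 1 higher, the matricellular gene Ccn1 (187 and 389.7 CPM), itself an immediate early gene. The median of that list was −0.29, and it was 0.16 when each cluster had the same weight in both muscles. Of 20 proteoglycan and glycoprotein genes 4 were past 2-fold higher and 1 lower, median 0.57. The collagen-binding proteoglycan decorin, Dcn, was the most abundant, at 7228 and 15875 CPM (2.196, 2.18 to 2.21), and the cartilage oligomeric matrix protein Comp was lower, at 139 and 59.8 CPM. Without Ccr2 the fibrillar collagen median was −0.82 and Col1a1 was at 12935 and 7543 CPM. These are levels per UMI of the class and do not measure collagen protein or scar.

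Signalling genes of FAP/fibroblast-like cells were split. Of 15 measured chemokine and cytokine genes 7 were past 2-fold lower and 1 higher, median −0.32 (0.02 with each cluster weighted alike), with the monocyte attractants Ccl2 at 605 and 166 CPM and Ccl7 at 363 and 107 CPM and the stem cell niche chemokine Cxcl12 at 449 and 135 CPM among the lower. In the knockout pair Ccl2 was at 164 and 155 CPM and Cxcl12 at 438 and 143 CPM. Of 13 Wnt and BMP modulators 4 were higher, such as Bmp4 (27.5 and 99.4 CPM), the Wnt antagonist Sfrp1 (224 and 631 CPM) and the Wnt amplifier Rspo3 (18.3 and 51.3 CPM), and 2 lower, Chrdl1 and Dkk2 (63.7 and 21.8 CPM). Of 9 complement genes 2 were past 2-fold higher, C7 among them, and Cfb, C4b (68.2 and 25.1 CPM) and C2 (50.9 and 18.9 CPM) were lower. Of 4 angiogenesis genes the lymphatic growth factor Vegfc (12.7 and 43.99 CPM) and Vegfb (22.9 and 53.2 CPM) were past 2-fold higher and 0 past 2-fold lower. By a smaller amount 2 were lower, and all genes of the list summed to 360 and 331 CPM. Pi16, the marker of adventitial progenitors, was at 180.2 and 705 CPM and past 2-fold higher, while 7 of the 9 measured genes of that list were lower and their median was −0.70 (0.24 in the knockout pair).

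Different clusters held most of the FAP/fibroblast-like class in the 2 muscles: cluster 7 (37.3%) and cluster 5 (20.2%) in the diaphragm, and clusters 4 (31.5%), 9 (24.8%) and 5 (24.7%) in the quadriceps. Cluster 4, led by Cthrc1, Tnc and Postn, was 13.9% of the diaphragm class. Cluster 9, led by Ccl2, Ptx3 and Ccl7, was 5.28% of it. Htra3 and Inmt led cluster 7, and Penk and Col6a5 led cluster 5. Within-cluster values of Ccl2, Ccl7, Tnc and Fn1 are not given here. Within clusters 4, 5, 6, 7 and 9, each with at least 50 cells in both libraries, Col6a5 ratios were 11.7, 28.9, 14.2, 152 (27.2 to 5989.5, from 1 quadriceps UMI) and 29.4, Ptgis ratios 49.2, 5.34, 4.37, 26.8 and 31.9, and C7 ratios 5.68, 3.65, 6.86, 3.82 and 5.30. Cxcl14 ratios were 0.134, 0.137, 0.0938, 0.162 and 0.240 and Ccl11 ratios 0.137, 0.220, 0.207, 0.149 and 0.194. These genes thus differed within every one of the 5 clusters in the direction of the whole class. Dcn came to 2.08, 1.39, 1.45, 1.20 and 1.496. The immediate early median was 1.28, 2.12, 2.69, 1.49 and 1.45 in the same clusters.

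Macrophage-like cells of the diaphragm had more antigen-presentation, inflammatory and stress transcripts and lower levels of most genes of the lipid-associated list. In all, 78 of 5347 measured genes (1.46%) were past 2-fold higher and 23 (0.430%) lower. The cytokine Il1b (chromosome 2, 129364570 to 129371139, minus strand) was at 31.2 and 191 CPM (6.13, 5.596 to 6.72) and the neutrophil chemokine Cxcl2 at 106 and 553 CPM (5.21, 4.96 to 5.48). Ccl4 was at 200.4 and 593 CPM, Ccl3 at 152 and 357 CPM, the adhesion molecule Vcam1 at 13.6 and 67.5 CPM, the maturation marker Cd83 at 72.5 and 263 CPM, Tagap at 11.9 and 46.95 CPM and the atypical chemokine receptor Ccrl2 at 40.6 and 124 CPM. Of 14 measured chemokine and cytokine genes 4 were past 2-fold higher and 0 lower, median 0.65. The other named higher genes belong to the stress groups given above: Hsph1 (49.7 and 205 CPM), Hsp90aa1 (420.1 and 1439 CPM), Ier3 (109 and 335 CPM), Klf2 (188 and 546 CPM) and Fosb (105 and 307 CPM), in a class where 13 of 18 immediate early and 8 of 14 heat shock genes were past 2-fold. Without Ccr2 Il1b was at 15.4 and 78.6 CPM and Cxcl2 at 109 and 451 CPM.

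MHC class II genes, which present peptides to T helper cells, were higher for all 7 measured members, 3 of them past 2-fold, with a median of 0.96. H2-Eb1 was at 1813 and 4168 CPM (2.299, 2.27 to 2.33), H2-Aa at 2183 and 4591 CPM, H2-Ab1 at 1939.9 and 4027 CPM and the invariant chain Cd74 at 4557 and 8896 CPM. The median was 0.28 in the knockout pair, where H2-Ab1 was at 1725 and 2098 CPM. In cDC2-like cells, whose class II level was far higher, the median was 0.08. Of 16 resident macrophage genes 1 was past 2-fold higher, the haemoglobin scavenger receptor Cd163 (24.6 and 62.1 CPM). Lyve1 was at 21.2 and 42.2 CPM and Folr2 at 215 and 137 CPM. The median of this list was 0.12, or −0.05 with clusters weighted alike, and it was 0.94 in the knockout pair.

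Lipid-associated macrophages gather where fibres die and take up lipid debris. Of 19 measured genes of that list 18 were lower in the diaphragm, 3 of them past 2-fold, with a median of −0.40. Lipoprotein lipase, Lpl, was at 965 and 328 CPM (0.339, 0.328 to 0.351), the elastase Mmp12 at 325 and 98.7 CPM and Fabp4 at 195 and 80.6 CPM. Galectin-3, Lgals3, was at 4071 and 2559 CPM, osteopontin, Spp1, at 1648 and 1250.2 CPM, Gpnmb at 844 and 536 CPM and the lipid receptor Trem2 at 713 and 672 CPM. The exception was apolipoprotein E, Apoe, at 12923 and 25645 CPM, which put the summed level of the list higher in the diaphragm, at 36821 and 42877 CPM, although its median was lower. Fabp4 stood at 16894 and 20416 CPM in endothelial-like cells, and the part of free RNA in its macrophage value was not tested. Other named lower genes were Qpct (34.2 and 9.51 CPM), the annexin Anxa1 (424 and 191 CPM), the peptidase Anpep (64.5 and 26.8 CPM), the osteoclast proton pump subunit Atp6v0d2 (97.3 and 45.3 CPM), the sialic acid lyase Npl (50.9 and 21.7 CPM) and the proliferation marker Mki67 (45.9 and 17.5 CPM). Monocyte genes were lower as well, with Ifitm6 at 46.7 and 16.5 CPM, Hp at 62.8 and 23.9 CPM, Chil3 at 98.97 and 41.9 CPM and Slfn4 at 34.96 and 13.8 CPM. Npl and Slfn4, with Ifitm6, went the other way in the knockout pair, at 55.5 and 74.1 CPM for Npl and 1.36 and 3.72 CPM for Slfn4. The knockout pair had a lipid-associated median of −0.96, with Spp1 at 1477 and 328 CPM.

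Spp1, Lgals3 and Gpnmb, of the lipid-associated list, were among the genes that led cluster 3, which also holds the monocyte-like cells. Cluster 3 made up 54.9% of the quadriceps class and 19.2% of the diaphragm class, and cluster 0 32.9% and 59.8%. Within clusters 0, 1 and 3 the MHC class II median was 0.50, 1.28 and 0.22, and that of the lipid-associated list −0.545, −0.513 and 0.0863. Il1b ratios were 8.89, 7.602 and 2.35 and Cxcl2 ratios 9.82, 15.2 and 4.66. The immediate early median was 1.38, 1.91 and 0.52. The lower lipid-associated median was thus not seen in cluster 3. Summed over 14 FAP/fibroblast markers the class held 461 CPM in the quadriceps and 1048 CPM in the diaphragm, with none at 0 and 4 of 6 measured markers past 2-fold higher. Classical monocyte markers in the class summed to 2084 and 1389 CPM, with 4 of 9 measured past 2-fold lower and none at 0. The part of free RNA in the differences was not tested.

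**Figure D5:**
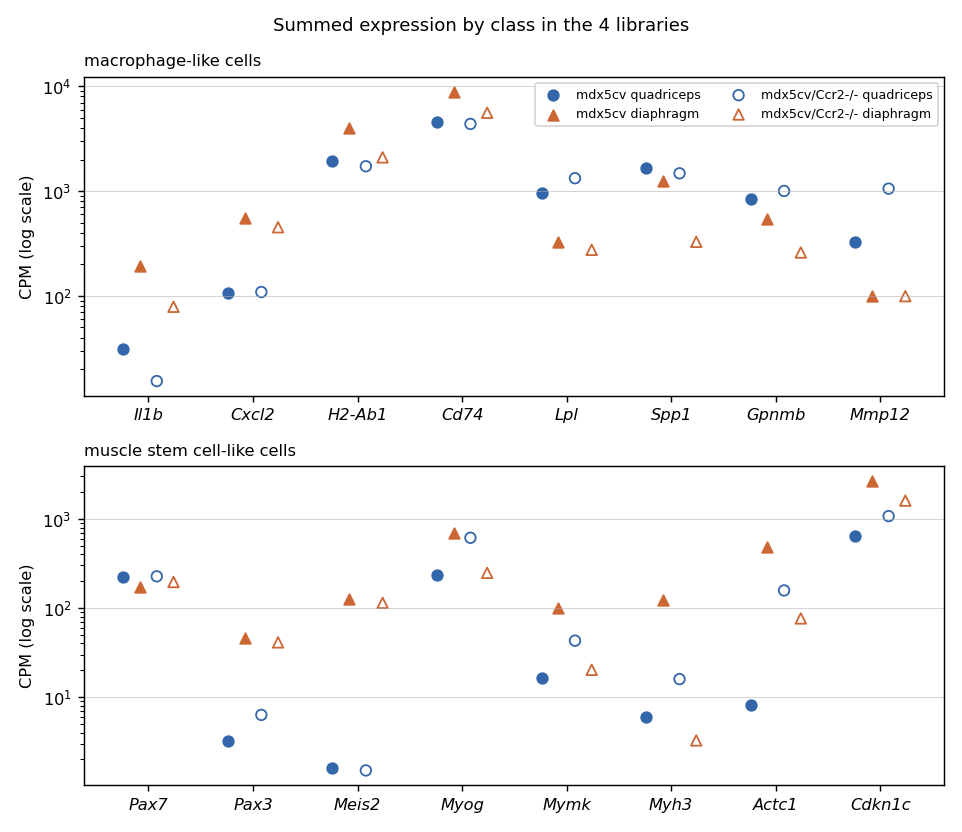
CPM on a logarithmic axis of 8 genes in macrophage-like cells (top) and 8 in muscle stem cell-like cells (bottom) in the 4 libraries; circles are quadriceps, triangles diaphragm, filled symbols mdx5cv and open symbols mdx5cv/Ccr2-/-. In macrophage-like cells diaphragm and quadriceps keep their order in both genotypes, whereas Myog, Mymk, Myh3 and Actc1 in muscle stem cell-like cells are higher in the diaphragm in mdx5cv and lower in it in mdx5cv/Ccr2-/-.

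The muscle stem cell-like class, which also takes in committed myoblast-like cells, held more transcripts of commitment and fusion in the mdx5cv diaphragm. In all, 73 of 5435 measured genes (1.34%) were past 2-fold higher and 55 (1.01%) lower, in 354 diaphragm and 171 quadriceps cells. Cardiac actin, Actc1, an actin of embryonic and regenerating muscle, was at 8.095 and 483 CPM (59.6, 36.03 to 107) and embryonic myosin, Myh3 (chromosome 11, 67078300 to 67102291, plus strand), at 5.94 and 124 CPM (20.9, 11.5 to 42.2). Slow troponin C, Tnnc1, was at 1.08 and 92.2 CPM. Of 16 measured genes of activation and commitment 7 were past 2-fold higher and 0 lower, median 0.57: among them the factor myogenin, Myog, at 233 and 697 CPM, the fusion proteins Mymk (16.2 and 99.3 CPM) and Mymx (87.97 and 183 CPM), and the cell cycle inhibitor Cdkn1c (647 and 2666 CPM). The stem cell factor Pax7 stood at 225 and 170.0 CPM, Myf5 at 245 and 186 CPM and Myod1 at 176 and 231 CPM. Of 16 quiescence genes 2 were past 2-fold lower and 0 higher, median −0.40. These were the collagen chain Col5a3 (199.7 and 89.4 CPM) and Chodl (503 and 239 CPM).

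Few cells gave these values. Myh3 had a UMI in 4 quadriceps and 18 diaphragm cells, Myog in 13 and 61, Mymk in 8 and 35, Actc1 in 6 and 36, with up to 253 Actc1 UMIs in 1 cell. Summed markers of committed myoblasts were at 1465 and 5248 CPM in the class, 7 of 8 past 2-fold higher, and those of myofibres at 1105 and 3686 CPM, 7 of 8 measured past 2-fold higher and none at 0. Macrophage markers summed to 1323 and 392 CPM, with 1 of 17 at 0 in each library. FAP/fibroblast markers summed to 2052 and 3640.2 CPM, with 4 of 10 measured past 2-fold higher and none at 0, and smooth muscle markers to 420.4 and 852 CPM, with 1 of 2 measured past 2-fold higher and 2 of 8 at 0 in each library. Their part in these values was not tested. In the knockout pair the commitment median was −0.31, with Myog at 614 and 248 CPM, Myh3 at 15.9 and 3.26 CPM and Actc1 at 157 and 76.4 CPM. Of the 73 genes higher in mdx5cv 18 were past 2-fold higher in the knockout pair and 38 were lower there by any amount. Among all 5435 measured genes 37 were past 2-fold higher and 70 lower in the knockout pair. Of all genes past 2-fold in mdx5cv 67.2% kept their sign. The difference between genotypes was not tested.

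At Leiden resolution 2 the class came apart into a Pax7-led muscle stem cell-like part and a Myog-led committed myoblast-like part. The stem cell-like part held 124 and 187 cells, a share ratio of 0.669 (0.530 to 0.846), and the committed part 47 and 167 (1.58, 1.13 to 2.23). In the knockout pair they held 225 and 89 and 119 and 48 cells, ratios of 0.416 and 0.425. In the stem cell-like part Actc1, Myh3, Mymk and Mymx had 0 UMIs in both mdx5cv muscles and Myog had 0 and 2. The transcripts of commitment thus lay in the committed part, except that Cdkn1c was at 216.3 and 486 CPM in the stem cell-like part (2.25, 1.87 to 2.72). In the committed part Actc1 was at 13.6 and 639 CPM (46.9, 28.3 to 83.9), Myh3 at 10.0 and 164 CPM (16.4, 9.07 to 33.1) and Myog at 393 and 922 CPM (2.35, 2.12 to 2.61). These ratios were below 1 in the knockout pair, at 0.518 for Actc1, 0.219 for Myh3 and 0.430 for Myog. Pax7 had ratios of 1.02 and 0.938 in the stem cell-like and the committed part in mdx5cv. The parts were clustered on genes of these same cells, so differences between the parts are a description.

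Other stem cell genes kept the same order in both genotypes. The senescence gene Cdkn2a, which encodes p16 and p19ARF, was at 157 and 24.6 CPM (0.157, 0.121 to 0.202) and 129 and 25.5 CPM in the knockout pair. Ceruloplasmin, Cp, was at 58.3 and 4.67 CPM, the amino acid transporter Slc7a8 at 40.5 and 9.03 CPM and Hoxc9 at 53.4 and 4.36 CPM. Higher beside Meis2 and Pax3 were the growth factor Igf2 (285 and 640.2 CPM, 247 and 619 CPM in the knockout pair) and Hoxb3os, an antisense transcript of the Hoxb cluster (1.08 and 38.9 CPM), whose reads cannot be told from those of overlapping genes, since the use of strand in counting is not given in the sources used here.

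Endothelial-like cells had the smallest share of genes past 2-fold among the 6 classes. Past 2-fold higher were 38 of 5874 measured genes (0.647%) and lower 14 (0.238%). Genes of venules, where leukocytes leave the blood, were lower: of 10 measured venous genes 3 were past 2-fold lower and 0 higher, median −0.59. P-selectin, Selp, was at 44.4 and 9.68 CPM (0.218, 0.135 to 0.336), the chemokine carrier Ackr1 at 33.6 and 8.36 CPM and Lrg1 at 109.7 and 50.2 CPM. Selp had a UMI in 66 of 1425 quadriceps and 10 of 729 diaphragm cells. Cluster 11, 8.49% of the quadriceps and 3.29% of the diaphragm class, holds 24 diaphragm cells and was not compared alone. Of 14 capillary genes 1 was past 2-fold higher, the butyrophilin-like Btnl9 (142 and 301 CPM), median 0.25, and the water channel Aqp1 was at 2031 and 1255 CPM. Both medians had the same sign in the knockout pair (−0.51 and 0.44).

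Further named endothelial genes that were higher were Depp1 (60.8 and 149 CPM), Swt1 (62.05 and 144 CPM), the endothelial immediate early gene Apold1 (64.7 and 145 CPM), Hspb1 (906 and 1930.1 CPM) and Arl4d (21.9 and 50.6 CPM). The cycling genes Top2a (9.86 and 32.6 CPM) and Stmn1 (30.8 and 84.1 CPM) were higher as well, but Top2a UMIs came from 15 quadriceps and 8 diaphragm cells with up to 37 in 1 cell, and Top2a was at 27.5 and 17.9 CPM in the knockout pair. Lower beside the venous genes were the cytokine receptor Csf2rb (67.9 and 22.4 CPM), Chp2 (44.7 and 15.4 CPM) and the mitochondrial leucyl-tRNA synthetase Lars2 (3091 and 1527 CPM), the last at 1999.6 and 1906 CPM in the knockout pair. FAP/fibroblast markers in this class summed to 290 CPM in the quadriceps and 1189 CPM in the diaphragm, with 6 of 7 measured ones past 2-fold higher and none at 0. Their part in the endothelial values was not tested.

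Tenocyte-like cells had the largest share of genes past 2-fold among the 6 classes, and different clusters held them. Of the quadriceps class 82.9% was cluster 16, and of the diaphragm class 96.0% was cluster 17, so the comparison sets unlike cells side by side. The class held 228 quadriceps and 403 diaphragm cells. At Leiden resolution 0.5 the tenocyte-like cluster held 220 and 105, so fewer diaphragm cells took this name there. Past 2-fold higher were 262 of 5523 measured genes (4.74%) and lower 219 (3.97%). Of 17 measured tendon matrix genes 13 were past 2-fold lower and 0 higher, median −1.63. The tendon factor Scx was at 485 and 77.3 CPM, tenomodulin, Tnmd, at 1768 and 567 CPM, fibromodulin, Fmod, at 5630.0 and 546 CPM, keratocan, Kera, at 675 and 15.4 CPM and chondroadherin, Chad, at 929 and 25.9 CPM. Thrombospondin 4, Thbs4, the most abundant, was at 12975 and 6024 CPM.

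The Wnt inhibitor Wif1 had 596 UMIs in the quadriceps class and 0 in the diaphragm (at least 294-fold higher in the quadriceps) and myostatin, Mstn, 251 and 0 (at least 124-fold). S100a4 was at 1223 and 45.3 CPM and Edil3 at 174 and 4.36 CPM. Higher in the diaphragm were fibroblast genes, such as the collagen-binding dermatopontin, Dpt (115 and 1541 CPM), Pi16 (82.5 and 749 CPM) and Col3a1 (3141 and 14901 CPM), with C1qtnf7 (5.58 and 143 CPM) and the LIM protein Fhl2 (9.02 and 140.4 CPM). Pdlim3 had 0 and 228 UMIs (at least 51.4-fold higher) and the guanylate cyclase subunit Gucy1a1 1 and 149, a ratio of 101 (17.8 to 4009). Summed FAP/fibroblast markers were at 35017 and 63553 CPM in the class, 7 of 14 past 2-fold higher, 1 lower and none at 0. Of the genes past 2-fold 98.1% had the same sign in the knockout pair, where Tnmd was at 1689 and 702 CPM. Among all 5523 measured genes 189 were past 2-fold higher and 181 lower in the knockout pair.

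Dendritic cells of the cDC2-like class, which carry antigen to lymph nodes, had more Il1b and Cxcl2 in the diaphragm, as macrophage-like cells did. Past 2-fold higher were 68 of 5005 measured genes (1.36%) and lower 13 (0.260%). Il1b was at 78.5 and 675 CPM (8.602, 7.23 to 10.3), Cxcl2 at 67.1 and 438 CPM, the growth factor amphiregulin, Areg, at 3.44 and 48.6 CPM, the survival gene Bcl2a1b at 42.99 and 182 CPM and Tbc1d4 at 28.1 and 118 CPM. Cxcl2 had a UMI in 14 and 65 cells, with up to 159 in 1 cell. In cDC2-like cells of the knockout pair Il1b was at 107 and 604 CPM and Cxcl2 at 135 and 171 CPM (1.27, 1.05 to 1.53). Ccr7, the receptor that guides dendritic cells to lymph nodes, was at 6.88 and 33.4 CPM from 2 and 28 cells. Bcl2a1b has near-identical paralogs among which reads may be split. Type I interferon genes were lower: 15 of 16 measured members were lower, 3 of them past 2-fold, median −0.46, with Ifit1 at 104 and 31.9 CPM (0.308, 0.235 to 0.3998), Rsad2 at 135 and 59.8 CPM and Isg15 at 298 and 192 CPM. Ifit1 had a UMI in 29 and 37 cells. Ifitm1 (105 and 36.7 CPM), Irgm1 (51.02 and 20.4 CPM), Tnfrsf23 (37.8 and 11.9 CPM) and Rpa3 (29.8 and 10.8 CPM) were lower too. In the knockout pair Ifitm1 was at 57.4 and 25.1 CPM, Irgm1 at 25.7 and 30.2, Tnfrsf23 at 18.1 and 18.1 and Rpa3 at 21.7 and 37.1. Of the 13 lower genes 2 were past 2-fold lower in that pair and 5 were higher by any amount. Of the 68 higher genes 16 were past 2-fold higher there and 11 lower by any amount. Among all 5005 measured genes 38 were past 2-fold higher and 36 lower there. FAP/fibroblast markers summed to 469 and 1341 CPM in the class, 5 of 8 measured past 2-fold higher and none at 0, and their part was not tested. In macrophage-like cells the interferon median was −0.08, and in the knockout cDC2-like cells −0.27.

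Over all cells together 208 of 6168 measured genes (3.37%) were past 2-fold higher in the diaphragm and 181 (2.93%) lower, a count that also holds the different mix of cells. Of 5 measured genes of fast fibres 2 were past 2-fold higher in the diaphragm and 0 lower, with Tnnt3 at 15.5 and 38.7 CPM, and in the knockout pair Tnnt3 was at 91.97 and 19.7 CPM. Myoglobin, Mb, the oxygen store of oxidative fibres, was at 1.24 and 12.4 CPM and slow troponin T, Tnnt1, at 4.85 and 22.5 CPM. Both lie below the level from which a gene counted as measured. Of 2 measured genes of slow and oxidative fibres 0 were past 2-fold in either direction, 1 was higher and 1 lower, median −0.20. All genes of that list summed to 462 and 427 CPM. Myofibre-like cells were 10 and 26 in the mdx5cv pair and 60 and 6 in the knockout pair. A further cluster, unnamed because fibroblast genes such as Inmt, Htra3 and Gsn led it while fibre genes were its highest markers, held 0 and 87 cells in the mdx5cv pair and 4 and 91 in the knockout pair. Their part in the fibre RNA was not tested.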

How the data were processed

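Mononuclear cells of quadriceps and diaphragm were profiled by 10x 3′ single-cell sequencing, per the labels' protocols. The authors deposited whole-number UMI counts, not normalized, made with Cell Ranger 6.1.2 on mm10, per the submitters' processing notes. Barcodes under 500 UMIs or 300 genes, or over 15% mitochondrial UMIs, were left out. The barcodes with the highest Scrublet scores were removed as doublets, 0.8% per 1000 barcodes (4.68% of the quadriceps, 10.5% of the diaphragm). Cells of 4 libraries were clustered with scanpy 1.11.5 (Leiden, resolution 1) and named "-like" from marker lists, so a name rests on rebuilt clusters. UMIs were summed per class and library for 6 classes with at least 100 cells in each mdx5cv library. Genes of pericyte-like cells (48 in the diaphragm) were not compared, and monocytes formed no cluster apart from macrophages at resolution 1 (at resolution 2 a classical monocyte-like cluster held 250 quadriceps and 90 diaphragm cells). With 1 library per group no test was made. Total UMIs were 50719786 in the quadriceps and 77519253 in the diaphragm cells. Named genes are those past 2-fold whose interval leaves out 1 and whose CPM in the class is at least that of the whole library, the 12 largest log2 ratios each way in the 3 large classes and 6 in the others, with the largest members of each list. Further list members, such as Spp1, Gpnmb, Trem2, Pax7, Myf5 and Myod1, were named after their values were seen. A few genes that the rule names are not reported here. Members and lists were chosen with earlier results of these data known. The ratio method was checked on simulated data in which UMIs were drawn independently, as the intervals assume. That check therefore does not cover UMIs bunched in single cells or differences between animals. In addition, 12 processing alternatives were tried.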

Additional observations from a re-analysis of the deposited data

Results flagged for a closer look

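Several genes were past 2-fold in opposite directions in the mdx5cv and mdx5cv/Ccr2-/- pairs of muscles. The difference between the pairs was not tested, since each group had 1 library. In muscle stem cell-like cells 5 genes of commitment and contraction were higher in the diaphragm in mdx5cv and lower in it without Ccr2. The log2 ratios of diaphragm over quadriceps in mdx5cv were 3.56 for Myh3, 1.56 for Myog, 1.01 for Mymx, 1.14 for Acta2 and 1.74 for Tnnt2. In the knockout pair they were −1.34, −1.29, −2.62, −1.03 and −1.57. The actin Acta2 was at 349 and 772 CPM in mdx5cv and 899.6 and 437 CPM in the knockout, and the troponin Tnnt2 at 94.98 and 329 CPM and 195 and 62.7 CPM. Myh3 rested on 4 and 18 cells in mdx5cv. The chemokine Ccl7 went the other way in these cells, with log2 ratios of −2.10 and 1.498, from 40.5 and 5.605 CPM in 12 and 10 cells in mdx5cv and 6.01 and 26.1 CPM in the knockout. Over all cells the fast fibre genes Tnnt3 and Tnnc2 had log2 ratios of 1.09 and 1.08 in mdx5cv and −1.98 and −1.94 in the knockout pair. Haemoglobin Hbb-bs had 2.64 and −1.64, or 12.2 and 102 CPM in mdx5cv and 17.7 and 2.31 CPM in the knockout.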

How the results depend on the processing

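Of 99 named genes under the alternatives, 816 of 1065 values stayed within the main interval, 249 moved beyond it and 0 reversed. Counts of genes past 2-fold moved with the filters and with doublet removal. Without a filter on low levels they were 177 lower in FAP/fibroblast-like, 134 higher and 36 lower in macrophage-like, 93 and 41 in endothelial-like, 185 and 152 in muscle stem cell-like, 450 and 428 in tenocyte-like and 145 and 40 in cDC2-like cells. From 50 CPM they were 64 lower, 12 lower, 23 and 4, 33 and 21, 158 and 116, and 44 and 6 in the same order. With doublets kept, counts were 191 higher in macrophage-like, 68 higher and 5 lower in endothelial-like, 116 higher in muscle stem cell-like, 108 higher in tenocyte-like and 185 higher in cDC2-like cells, and the FAP/fibroblast share ratio was 3.01. With a pseudocount of 1 CPM, cDC2-like cells had 23 lower genes, at Leiden resolution 0.5 7, and with each cell weighted alike 26, with 93 lower in muscle stem cell-like cells. At resolution 2 tenocyte-like cells had 142 and 125, and with clusters weighted alike macrophage-like cells had 11 lower. Stricter cell filters gave share ratios of 0.187 for endothelial-like and 0.153 for pericyte- and smooth muscle-like cells. Thinned to 1000 UMIs, Hoxc10 was in 5.12% of quadriceps and Hoxb4 in 3.45% of diaphragm FAP/fibroblast-like cells. Of 346 values of list medians 8 changed sign, and not all of these were near 0 at first. The arterial list went from −0.02 to 0.0851 with doublets kept, 0.000157 with stricter filters and 0.0308 from 50 CPM. FAP/fibroblast chemokines went from −0.32 to 0.00628 without a filter. With clusters weighted alike, chemokines came to 0.0245. Activated fibroblast genes went from −0.29 to 0.161 with that weighting, parenchymal FAP genes from 0.37 to −0.129 and resident macrophage genes from 0.12 to −0.0492. The causes were not tested. No paired analysis was possible because each group had 1 library.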
